A study of Mus musculus with 9 samples.

Results

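The clustered histone genes were taken as every gene of the deposited table whose symbol begins with Hist1h, Hist2h, Hist3h or Hist4h, which gave 70 of 38215 genes. Of these, 6 coded for the linker histone H1, 20 for H2A, 19 for H2B, 12 for H3 and 13 for H4, the 4 last being the core histones of the nucleosome. The cluster on chromosome 13 held 56 of them, chromosome 3 held 10, chromosome 11 held 3 and chromosome 6 held 1. The annotation calls 68 of the genes protein-coding and 2, Hist1h2aj and Hist3h2bb-ps, pseudogenes. RNA had been sequenced from sorted LSK cells (lineage-negative, Sca1-positive and Kit-positive), the bone marrow fraction that holds the blood stem and early progenitor cells. All 9 libraries came from C57BL/6J mice treated with tamoxifen, from cells positive for both GFP and mCherry that were sorted at the terminal time point. The 5 EV libraries (from animals 1 to 5, called EV 1 to EV 5) have the genotype Jak2V617F, the activating change of the kinase JAK2 found in myeloproliferative neoplasms, and the 4 sgZrsr2 libraries (sgZrsr2 1, 2, 3 and 5) have sgZrsr2 in the genotype as well. Zrsr2 codes for a splicing factor of the minor spliceosome. The labels spell out neither EV nor sg, and name neither the Cre line that tamoxifen acts on nor the vectors behind the 2 colours.

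Clustered histone genes supply most histone protein while DNA is copied, so their mRNAs are abundant in S phase and are degraded when replication stops. As a rule these mRNAs have no introns and no poly(A) tail: they end just after a short stem-loop, which the stem-loop binding protein Slbp holds while the U7 snRNP, with its subunits Lsm10 and Lsm11, directs the cut. Some of the same genes also give polyadenylated transcripts, which are known mainly from cells that have stopped dividing or are differentiating. The libraries here were made from 5 ng of total RNA after selection of polyadenylated RNA, so a count shows what was kept by that selection and not the whole pool of histone mRNA.

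The stem-loop is the feature that the members share beyond their names, and the stretches below show its main forms with the bases ahead of it. An exact match to the stem-loop letters (GGNN, CTTNTNAG and NNCC joined without a gap, N being any base), on the transcript strand only, was present in the annotated transcripts of 46 of the 70 members (65.7%), and in 0.539% of 21885 other protein-coding genes. Allowing 1 mismatch left the number at 46. Bases beyond the annotated ends were not searched, and several members without a match have short annotated transcripts. Examples are Hist1h2ai (393 bases), Hist1h2bl (381), Hist1h3h (411) and Hist1h4k (312). The lack of a match therefore does not show that a gene lacks the stem-loop. The form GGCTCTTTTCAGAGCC was the most frequent, in 26 members of the H1, H2A, H2B and H3 types. All 12 H4 members with a match carried a form with another stem, and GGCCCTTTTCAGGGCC was present in 7 of them. Each line gives the place in GRCm38 (transcripts of GENCODE M21) and the sequence from 5′ to 3′, with the stem-loop in capitals.
Hist1h2ap, chr13:21833029-21833056, minus strand: aaaaaaaaaaaaGGCTCTTTTCAGAGCC
Hist1h2ao, chr13:21810886-21810913, plus strand: aaaaaaaaaaaaGGCTCTTTTCAGAGCC
Hist1h2ae, chr13:23570668-23570695, minus strand: aaaaaaaacaaaGGCTCTTTTCAGAGCC
Hist1h1c, chr13:23739500-23739527, plus strand: aacaatccaaaaGGCTCTTTTCAGAGCC
Hist1h3c, chr13:23745047-23745074, minus strand: tatttaaaaaaaGGCTCTTTTAAGAGCC
Hist1h3g, chr13:23535877-23535904, plus strand: aaccactttaaaGGCTCTTCTTAGAGCC
Hist1h4m, chr13:21812117-21812144, plus strand: ttctcaactaaaGGCCCTTTTCAGGGCC
Hist1h4i, chr13:22040966-22040993, minus strand: atgctacttaaaGGCCCTTTTTAGGGCC
Hist1h4b, chr13:23757354-23757381, plus strand: actgttacaaaaGGTCCTTTTCAGGACC
The stem is the same in the first 6 lines and differs in the 3 H4 lines. Hist1h2ap and Hist1h2ao have an unbroken run of 12 A directly ahead of the stem-loop, and Hist1h2ae has the same stretch with a c in it. A run of at least 12 A was present in 3 of the 70 members (4.29%; Hist1h2ac is the other one) and in 12.6% of the other protein-coding genes.

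The annotated 3′ ends split the members into 3 classes that are used below. In 17 members the annotated transcript carries AATAAA or ATTAAA, the usual poly(A) signals, in its last 40 bases (24.3% of the members against 79.2% of the other protein-coding genes). In 21 others it stops within 100 bases after the stem-loop, and the remaining 32 have neither. Members that meet both rules are kept in the class with a poly(A) signal. These are Hist1h4h, which stops 46 bases after the stem-loop, and Hist1h2bp, which stops 38 bases after it. Hist1h1c is an example of the class with a poly(A) signal, since its annotated transcript runs 840 bases past the stem-loop shown above. These classes describe the annotation and not the ends of the RNAs sequenced. A member can fall in the last class because its annotated transcript is short.

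The libraries held 23238264 to 45585531 counts and 16169 to 19411 detected genes. Zrsr2, which checks the group labels, was at 50.6, 51.9, 62.2, 51.7 and 50.7 CPM (counts scaled to library size with TMM factors) in EV 1 to 5 and at 39.4, 44.4, 40.0 and 31.7 CPM in sgZrsr2 1, 2, 3 and 5. All sgZrsr2 libraries were below all EV libraries, but transcript remained in each (log2 fold change −0.46, SE 0.12; p = 0.0159 in a two-sided exact permutation test, the smallest it allows; adjusted p = 0.714 over all genes in edgeR). All 11 LSK markers listed, among them Kit and Cd34, were detected in every library. Of 10 erythroid markers, 8 were found, and their summed level was 57.5, 132 and 76.5 CPM in EV 5, sgZrsr2 3 and sgZrsr2 5 but at most 4.40 CPM elsewhere. Several counts and medians below are therefore also given without those 3 libraries. That leaves EV 1 to 4 against only sgZrsr2 1 and 2. Since these are bulk samples, fewer cells of a type and less RNA per cell cannot be told apart.

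One H2A gene held most of the reads of the clustered histone genes. The 11 variant histone genes listed, which are not members, summed to more, at 4229 to 6159 CPM in EV and 4103 to 4811 CPM in sgZrsr2. Hist1h2ap was at 717, 928, 1068, 1110 and 715 CPM in EV 1 to 5 and at 800, 801, 526 and 761 CPM in sgZrsr2 1, 2, 3 and 5. EV 3 and 4 were the highest, sgZrsr2 3 was the lowest, and the groups overlapped. It took between 65.4% of the members' reads (95% Wilson interval 64.9% to 65.9%, sgZrsr2 3) and 79.3% (79.0% to 79.6%, EV 4). All members together made up 0.0805% to 0.145% of the TMM-scaled library size, which is not the share of a library's raw counts. Intervals of this kind cover counting error only.

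Hist1h2ao, in the same cluster, is its nearest copy, with 93.5% of its 50-base stretches also present in Hist1h2ap, and the same 12 A and stem-loop at its end. Hist1h2ao was at 26.8, 30.7, 43.7, 41.6 and 21.9 CPM in EV 1 to 5 and at 40.7, 33.8, 16.8 and 22.0 CPM in sgZrsr2 1, 2, 3 and 5. Hist1h2ap was thus 19.7 to 34.6 times higher within each library. Per kilobase of exon, the mean level over all libraries was 1712 CPM for Hist1h2ap and 64.4 CPM for Hist1h2ao, a ratio of 26.6, or 24.7 with the gene lengths of the deposited table. The deposited coordinates of Hist1h2ap (chromosome 13, 21833057 to 21833575, minus strand) stop 1 base short of the run of A (21833045 to 21833056), whereas its M21 transcript reaches 21833026 and includes both the run and the stem-loop. The deposited coordinates of Hist1h2ao (21810465 to 21810944) include both. How reads that match both genes were divided between them cannot be read from the table, so the split is uncertain. The sum of the pair, which does not depend on it, was 543 to 1152 CPM.

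The other members were low. Of the 64 that passed the filter on low counts, 13 had a mean under 1 CPM, 45 lay between 1 and 10 CPM and 6 were at 10 CPM or more. The 6 that did not pass were Hist1h1t, Hist1h2aa, Hist1h2al, Hist1h2ba, Hist2h2ab and Hist2h3c1, of which the highest had a mean of 0.144 CPM. Hist1h1t and Hist1h2ba are known as histone genes of the testis. Hist1h2aa and Hist1h2ba had no count in any library, where 3 counts correspond to 0.0663 to 0.134 CPM.

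Levels per kilobase of exon (CPM per kilobase, mean over the libraries) placed Hist1h4i next after Hist1h2ap and Hist1h2ao, at 25.9, followed by Hist1h1c at 19.7, Hist1h2bc at 19.1 and Hist1h2bg at 14.1. The value for Hist1h2bc depends on the length used and was 2.66 with the gene span of the deposited table, which is longer than its exons. The highest H3 gene on this scale was Hist1h3c at 8.59. Medians by type ranged from 1.45 for H2B to 4.85 for H2A. By annotated end, the median was 5.20 for members ending at the stem-loop, 2.43 for members with neither kind of end and 0.855 for members with a poly(A) signal. Members with a poly(A) signal were thus not the higher class in these libraries, although Hist1h4i and Hist1h1c belong to it. This order rests on annotated lengths, whose median is 1560 bases in that class and 485 bases in members ending at the stem-loop.

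Several members share long stretches with another gene of the family, which limits what single values mean. The median share of a member's 50-base stretches that occur in another gene was 49.4%, and 4 members shared none. Hist2h2aa1 and Hist2h2aa2, an H2A pair on chromosome 3, show the effect of this. Hist2h2aa2 ranged from 0.759 to 14.6 CPM over the libraries, Hist2h2aa1 from 3.47 to 14.3 CPM, and their sum only from 9.59 to 20.3 CPM. Hist1h2bq ranged 11.3-fold (0.285 to 3.23 CPM), while its sum with Hist1h2br ranged 2.71-fold. Hist1h4m was at 0 in sgZrsr2 1 and at up to 5.98 CPM elsewhere, and its sum with the copy Hist1h4n stayed between 2.19 and 8.46 CPM. The pseudogene Hist1h2aj was at 0 in sgZrsr2 2 and reached 0.823 CPM, and its sum with Hist1h2ai, which shares 93.1% of its stretches, was 1.64 to 4.75 CPM. The values of each of these pairs are uncertain gene by gene. Hist2h2aa1, Hist1h2br, Hist1h4n and Hist1h2ai are named here after their values were seen, as the partners of members that vary most.

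Histone levels differed widely between libraries of the same group. EV 3 was the highest of the 9 libraries for 32 of the 64 members tested (50%), whereas it was the highest for 20.2% of all genes tested. EV 5 was the lowest for 20 members (31.3%, against 5.98% of all genes). In 43 members (67.2%) the lowest library was EV 5, sgZrsr2 3 or sgZrsr2 5, against 33.2% of all genes. Of these libraries sgZrsr2 3 did not stand out by this count, being lowest for 17.2% of the members and 20.9% of all genes. With CPM computed from library totals, EV 3 was the highest for 26 members.

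The median member stood 0.68 above its own mean over the libraries in EV 3 and 0.36 above it in EV 4, on the log2(CPM + 0.25) scale. It was at 0.19 and 0.10 in sgZrsr2 1 and 2, at −0.00 and −0.01 in EV 1 and 2, and at −0.43, −0.37 and −0.40 in EV 5, sgZrsr2 3 and sgZrsr2 5. The same median over all genes tested lay between −0.01 and 0.03 in every library. Both groups contained libraries below the members' mean, and the 2 libraries furthest above it were EV libraries.

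**Figure D1:**
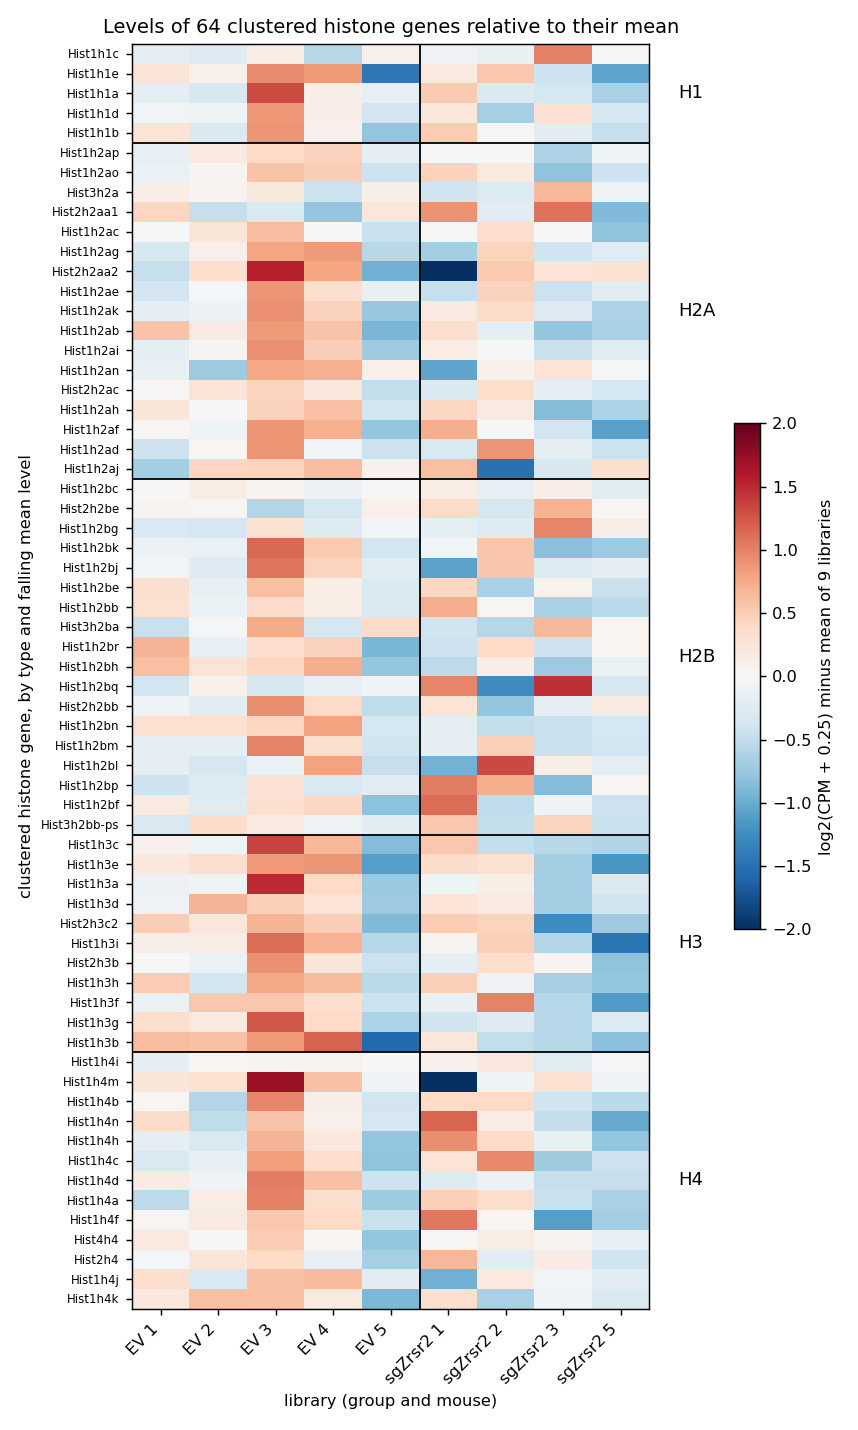
Each line is 1 of the 64 members tested, grouped by histone type, each column is 1 library, and the colour is log2(CPM + 0.25) minus the member's mean over the 9 libraries. EV 3 is high in many lines (32 members have their highest value there) and EV 5, sgZrsr2 3 and sgZrsr2 5 are low.

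Over the libraries, the median of the members with a poly(A) signal covered a narrower range than that of the other classes. In sgZrsr2 3 the median relative level was 0.05 for members with a poly(A) signal and −0.47 for members ending at the stem-loop. In EV 3 it was 0.39 and 0.86. Of the 15 tested members with a poly(A) signal, 5 had their highest value in EV 3 and 4 in sgZrsr2 3. The 6 members with their highest value in sgZrsr2 3 were Hist1h1c, Hist1h2bg, Hist1h2bq, Hist2h2aa1, Hist2h2be and Hist3h2a, and 4 of them have a poly(A) signal at the annotated end. These 6 are 9.38% of the members, against 21% of all genes with their highest value in that library, and the number was 9 with CPM from library totals. Hist3h2a is named here for that reason, after its values were seen.

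Other RNAs that lack a poly(A) tail or carry only short tails were measured in the same libraries. Mitochondrial ribosomal RNA (Mt_rRNA in the annotation) was at 1122, 1120, 2432, 1384 and 539 CPM in EV 1 to 5 and at 1997, 2015, 492 and 447 CPM in sgZrsr2 1, 2, 3 and 5. The miscellaneous RNAs (misc_RNA) were at 39.0, 43.2, 54.1, 48.3 and 13.1 CPM and at 60.3, 55.3, 19.9 and 12.8 CPM in the same order. Both classes were lowest in EV 5, sgZrsr2 3 and sgZrsr2 5, the libraries that were low for the stem-loop members and high for erythroid markers. Small nuclear RNA was highest in EV 3, at 5.30 CPM, and lay between 0.872 and 2.35 CPM elsewhere.

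Markers of other cells and of the cell cycle are given beside this. The summed level of 8 megakaryocyte markers was 139, 125, 160, 281 and 307 CPM in the EV libraries and 258, 219, 382 and 503 CPM in the sgZrsr2 libraries. Mature neutrophil markers summed to 182 CPM in EV 5 and 211 CPM in sgZrsr2 3, and to 15.6 to 78.1 CPM elsewhere. Lymphoid markers ranged from 108 to 368 CPM in EV and from 70.1 to 263 CPM in sgZrsr2. The mean log2 CPM of 22 replication genes, among them Mcm6 and Mcm7, was highest in EV 3 (7.41) and EV 4 (7.35) and lowest in sgZrsr2 3 (6.62), and lay between 7.04 and 7.27 in the other libraries. That of 13 mitotic genes, with Mki67 and Top2a, was lowest in EV 3 (6.30). The part of these RNAs, of the other cells and of replication in the histone levels was not tested.

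**Figure D2:**
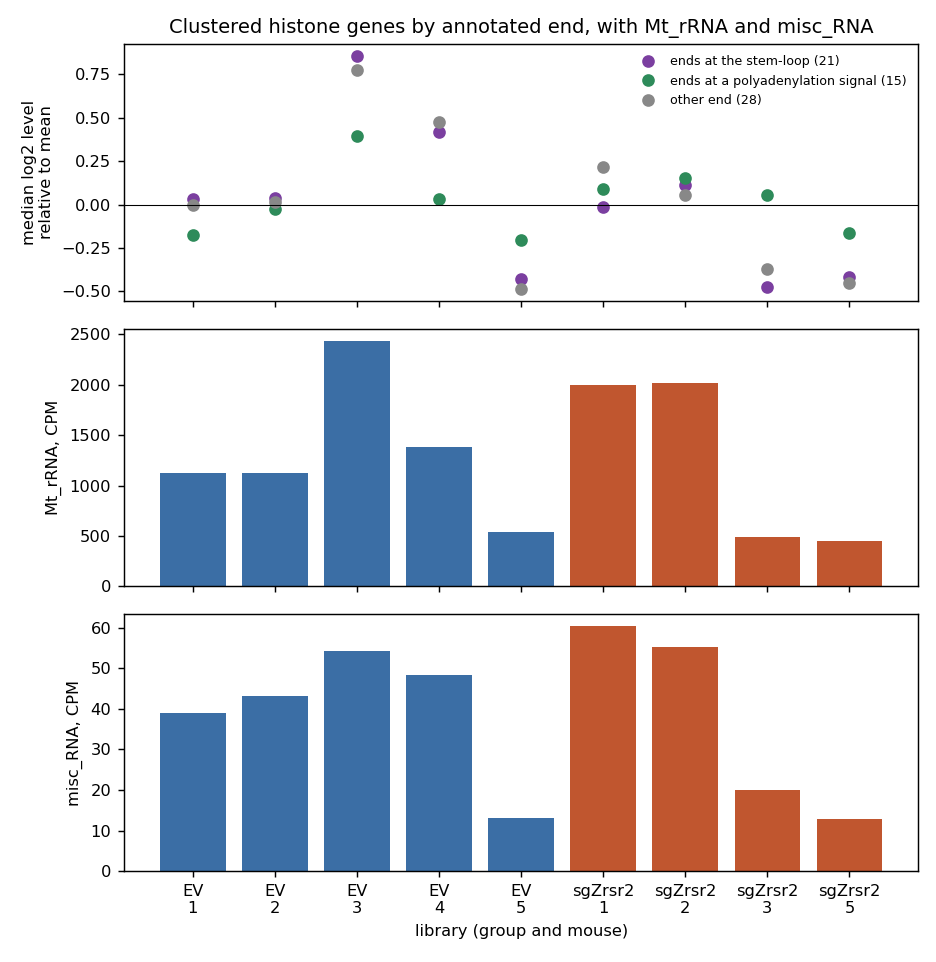
The upper panel gives, for each library, the median relative level (log2) of the members ending at the stem-loop (21), at a poly(A) signal (15 tested) or at neither (28), and the lower panels give Mt_rRNA and misc_RNA in CPM. In EV 5, sgZrsr2 3 and sgZrsr2 5 the stem-loop class is at −0.42 to −0.47 and both RNA classes are at their lowest.

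The comparison of sgZrsr2 with EV addresses whether histone transcripts differ when Zrsr2 is targeted on the Jak2V617F background. After Benjamini-Hochberg adjustment over all genes, edgeR's quasi-likelihood test called no member and no other gene at 0.05 (0% of 14944), and the lowest adjusted p of a member was 0.714. At an unadjusted p under 0.05, 2 members were lower with sgZrsr2 and 0 were higher, where 6.85% of all genes had such a p, 2.98% lower and 3.87% higher. Those 2 were Hist1h2bn and Hist1h3g. The count moved with single libraries: it was 7, all lower, without EV 5, 1 lower without EV 1 or EV 3, 0 without EV 4 or sgZrsr2 5, 2 higher without sgZrsr2 2 and 1 higher without sgZrsr2 3. Without EV 5, sgZrsr2 3 and sgZrsr2 5 together, 1 member was lower and 1 higher. The shares of all genes given above belong to the fit of all libraries. Those of the fits with libraries left out are not given here, so these counts are not read as results about the members. DESeq2 and limma-voom called no member after adjustment either. In no member were the groups without overlap, against 1.32% of all genes without overlap and lower and 1.75% without overlap and higher. The median log2 fold change of the 64 members was −0.30 (48 below 0 and 16 above), against −0.01 for all genes tested, of which 51.5% were below 0. Leaving out 1 library at a time moved this median between −0.42 and −0.10, it was −0.19 (−0.03 for all genes) without EV 5, sgZrsr2 3 and sgZrsr2 5, and it was −0.06 with limma-voom's sample weights.

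The summed level of all members was 966, 1180, 1450, 1400 and 926 CPM in EV and 1079, 1069, 805 and 965 CPM in sgZrsr2, with means of 1184 ± 241 (SD, n = 5) and 979 ± 127 (SD, n = 4). The groups overlapped, and the sgZrsr2 mean was 82.7% of the EV mean. Most of that gap was the single gene Hist1h2ap, whose means were 908 ± 188 CPM in EV and 722 ± 132 CPM in sgZrsr2 (log2 fold change −0.33, SE 0.18, p = 0.0952, adjusted p = 0.714 in edgeR; p = 0.175 in a two-sided exact permutation test). Without Hist1h2ap the sums were 277 ± 64.9 and 257 ± 35.9 CPM, and sgZrsr2 was at 93.0% of EV.

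The H1 genes code for the linker histones that bind DNA between nucleosomes. Their summed level was 41.7, 37.9, 63.4, 39.1 and 40.6 CPM in EV and 46.7, 41.1, 72.3 and 38.7 CPM in sgZrsr2. EV 3 and sgZrsr2 3, whose shared number is not used as a pair, were the highest of their groups. Hist1h1c, coding for H1.2, was at 26.0, 24.4, 32.5, 19.9 and 31.4 CPM in EV and at 27.4, 26.5, 59.1 and 29.4 CPM in sgZrsr2. Outside sgZrsr2 3 the sgZrsr2 values lay within the EV range (log2 fold change 0.074 without EV 5, sgZrsr2 3 and sgZrsr2 5), and the difference did not pass the test (log2 fold change 0.41, SE 0.25, p = 0.135 in edgeR's test; p = 0.333 in the exact permutation test). Hist1h1e, the other H1 gene with the highest levels, had means of 5.22 ± 2.69 and 3.87 ± 1.84 CPM in EV and sgZrsr2. Of the 5 H1 genes tested, 4 were below 0 and Hist1h1c alone was above, with a median of −0.25 that turned to 0.0074 without EV 3 and to 0.07 with limma-voom.

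Among the H2A genes, the sum without Hist1h2ap was 85.5, 91.1, 136, 110 and 71.1 CPM in EV and 95.2, 98.1, 87.4 and 68.9 CPM in sgZrsr2. EV 3 was the highest and the sgZrsr2 values lay within the EV range except for mouse 5. The median log2 fold change of the 17 tested H2A members was −0.34, with 14 below 0 and 3 above. It was −0.13 without EV 3, −0.22 without EV 5, sgZrsr2 3 and sgZrsr2 5, and −0.12 with limma-voom. Hist1h2ao stood at −0.22 (SE 0.28) but above 0 with limma-voom (0.037) and without those 3 libraries (0.067), and Hist2h2aa2 at −0.49 (SE 0.62).

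The H2B genes differed least between the groups in sum, at 61.7, 60.8, 78.3, 63.4 and 57.0 CPM in EV and 67.1, 59.7, 75.7 and 54.2 CPM in sgZrsr2. The ranges nearly coincided, and EV 3 and sgZrsr2 3 were again the highest of their groups. Hist1h2bc, the highest H2B gene, was at 22.4 ± 1.59 CPM (SD, n = 5) and 21.7 ± 2.95 CPM (SD, n = 4). Hist2h2be, an H2B gene on chromosome 3 with a poly(A) signal and no stem-loop match, was at 9.59, 9.37, 6.11, 7.24 and 9.98 CPM in EV and 12.1, 7.28, 15.2 and 9.38 CPM in sgZrsr2. It was lowest in EV 3, where 32 of the 64 members were highest, and highest in sgZrsr2 3 (log2 fold change 0.38, SE 0.24, p = 0.149 in edgeR's test; p = 0.238 in the exact permutation test). Hist1h2bg followed at 0.38 (SE 0.28), Hist1h2bp at 0.74 (SE 0.53) and Hist1h2bq at 0.88 (SE 0.57), none with an unadjusted p under 0.05 in edgeR's test. Hist1h2bg turned to −0.090 without EV 5, sgZrsr2 3 and sgZrsr2 5, and Hist1h2bq, whose reads are shared with Hist1h2br, to −0.10 with limma-voom.

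Hist1h2bn was the member with the smallest p, and 86.4% of its 50-base stretches occur in other genes, so its values are uncertain in the way of the pairs above. It was at 1.04, 1.04, 1.17, 1.57 and 0.573 CPM in EV and at 0.664, 0.500, 0.516 and 0.573 CPM in sgZrsr2. EV 5 lay within the sgZrsr2 range and the other EV libraries above it. The log2 fold change was −0.94 (SE 0.36, p = 0.0256, adjusted p = 0.714 in edgeR's test; p = 0.0476 in the exact permutation test). At these levels a library holds as few as 12.5 counts of the gene. Without EV 5, sgZrsr2 3 and sgZrsr2 5 the log2 fold change of Hist1h2bn was −1.06. Over all 18 H2B members tested, 11 were below 0 and 7 above, with a median of −0.13 that was −0.027 without EV 3 and −0.04 with limma-voom.

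The H3 genes had the lowest median of the types. All 11 tested H3 members were below 0, with a median of −0.59, and none of them has a poly(A) signal at its annotated end. The summed level was 30.6, 30.9, 57.3, 41.6 and 14.9 CPM in EV and 32.2, 31.7, 16.9 and 15.5 CPM in sgZrsr2. EV 5 was the lowest of all, next to sgZrsr2 5 and 3, and the highest library was 3.85 times the lowest, the widest spread of the 5 types. The sgZrsr2 mean was 68.6% of the EV mean, and the median log2 fold change was −0.28 without those 3 libraries, −0.30 without EV 3, −0.35 without sgZrsr2 5 and −0.31 with limma-voom.

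Hist1h3c, the highest H3 gene, was at 5.08, 4.42, 12.5, 7.67 and 2.48 CPM in EV and 7.05, 3.30, 3.15 and 3.04 CPM in sgZrsr2 (log2 fold change −0.65, SE 0.45). EV 3 and sgZrsr2 1 stood above the rest of their groups. Hist1h3g was at 1.68, 1.48, 3.37, 1.77 and 0.732 CPM in EV and 0.907, 1.02, 0.786 and 1.01 CPM in sgZrsr2. As with Hist1h2bn, EV 5 was low and the other EV libraries lay above all of sgZrsr2 (log2 fold change −0.96, SE 0.42, p = 0.0422, adjusted p = 0.714 in edgeR's test; p = 0.0794 in the exact permutation test). Of the 50-base stretches of Hist1h3g, 54.1% occur in other genes. Hist1h3b was at −1.15 (SE 0.60) and Hist1h3e at −0.59 (SE 0.47).

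The H4 genes were near balance, with 8 of 13 members below 0 and a median of −0.14. That median turned positive without EV 3 (0.14), without sgZrsr2 5 (0.032), without EV 5, sgZrsr2 3 and sgZrsr2 5 (0.17) and with limma-voom (0.10). Their sum was 29.8, 31.3, 46.2, 35.8 and 26.9 CPM in EV and 37.4, 37.4, 26.1 and 26.8 CPM in sgZrsr2, and sgZrsr2 1 and 2 lay above every EV library but mouse 3. Hist1h4i, whose stem-loop is printed above and which also has a poly(A) signal, held 18.7 ± 1.34 CPM in EV and 19.1 ± 2.56 CPM in sgZrsr2. Hist1h4d was at 1.28, 1.05, 2.50, 1.79 and 0.771 CPM in EV and 0.890, 1.01, 0.734 and 0.737 CPM in sgZrsr2 (log2 fold change −0.82, SE 0.39, p = 0.0600 in edgeR's test; p = 0.0635 in the exact permutation test). Hist1h4m, which shares most of its sequence with Hist1h4n, was at −1.13 (SE 0.78).

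**Figure D3:**
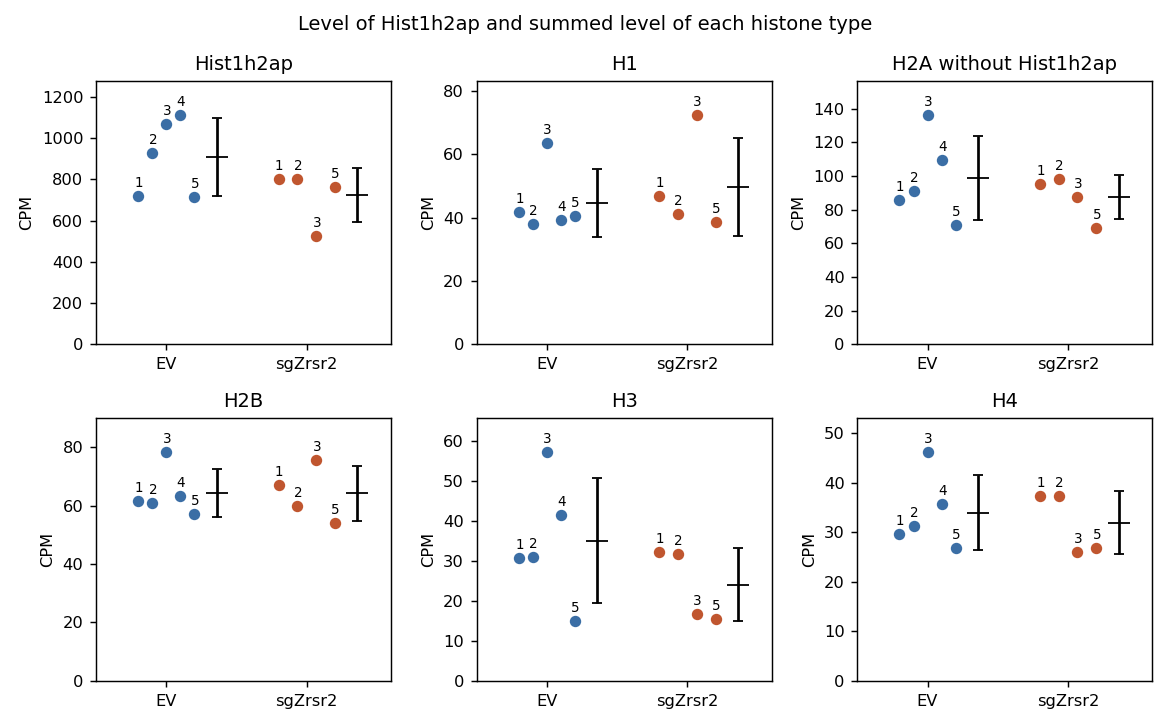
Points are libraries, labelled by mouse, with the level of Hist1h2ap or the summed level of a histone type (H2A without Hist1h2ap) in CPM, and bars give the mean ± SD of 5 EV and 4 sgZrsr2 libraries. The groups overlap in each panel, and EV 3 is the highest EV library in all panels but that of Hist1h2ap.

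By annotated end, the median log2 fold change was 0.01 for the 15 tested members with a poly(A) signal (7 below 0 and 8 above), −0.39 for the 21 ending at the stem-loop (17 below and 4 above) and −0.39 for the 28 with neither (24 below and 4 above). Leaving out EV 5, sgZrsr2 3 and sgZrsr2 5 gave 0.07, −0.21 and −0.22, and limma-voom gave −0.08 and −0.12 for the last 2 classes. Without EV 3 alone these 2 classes stood at −0.15 and −0.16, and without sgZrsr2 3 alone the stem-loop class stood at −0.25. Without sgZrsr2 5 alone the class with neither end stood at −0.24. The difference between the classes was not tested. In the same comparison, all 8 megakaryocyte markers tested had a log2 fold change above 0 (median 1.41), as had the 5 erythroid markers tested (median 1.85), and all 7 lymphoid markers tested were below 0 (median −0.88). None of these markers passed an unadjusted p of 0.05 in edgeR's test. Of the 11 LSK markers, 8 were above 0 and 3 below. Of these LSK markers, 2 were higher at such a p, against 3.87% of all genes, and 0 passed adjustment.

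**Figure D4:**
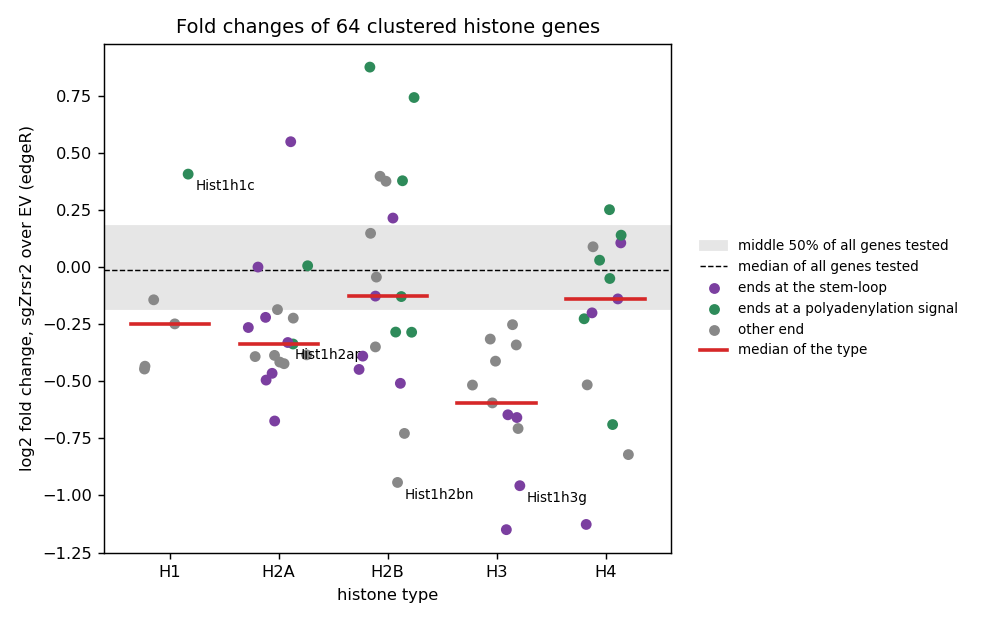
Points are the log2 fold changes (sgZrsr2 against EV) of the 64 members tested, by histone type and coloured by annotated end, with the type medians as red lines and the middle 50% of all genes as a grey band from −0.18 to 0.18. All 11 H3 points lie below 0 (median −0.59), and the members with a poly(A) signal lie on both sides.

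Promoter sequence is given for 4 members that were at opposite ends in sgZrsr2 3: Hist1h2ap and Hist1h2bk were lowest there, and Hist1h1c and Hist1h2bg were highest. Hist1h2bk was chosen after its values were seen. RefSeq promoters of GRCm38.p6 were matched for 62 of the 70 members and searched from 250 bases before to 50 bases after the RefSeq start. That start can differ from the deposited gene start. For Hist1h2ap it lies 100 bases inside the deposited gene, so the line of Hist1h2ap includes bases annotated as transcribed. The distance was 0 for Hist1h1c and Hist1h2bk and 4 bases for Hist1h2bg. Each line holds the 250 bases before the RefSeq start from 5′ to 3′. Capitals mark TATAAA on the transcript strand and CCAAT, ATTTGCAT or AAACACA on either strand.
Hist1h2ap, chr13:21833476-21833725, minus strand: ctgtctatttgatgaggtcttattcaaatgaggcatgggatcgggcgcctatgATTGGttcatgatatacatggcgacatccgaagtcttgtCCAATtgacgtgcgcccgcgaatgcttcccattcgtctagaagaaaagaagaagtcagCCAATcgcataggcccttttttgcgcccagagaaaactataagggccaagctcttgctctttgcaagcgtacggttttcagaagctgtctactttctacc
Hist1h1c, chr13:23738557-23738806, plus strand: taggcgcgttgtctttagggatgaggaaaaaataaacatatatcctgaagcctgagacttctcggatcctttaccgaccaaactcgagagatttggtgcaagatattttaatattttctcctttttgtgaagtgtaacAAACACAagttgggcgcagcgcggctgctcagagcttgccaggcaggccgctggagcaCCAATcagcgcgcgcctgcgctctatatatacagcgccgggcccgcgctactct
Hist1h2bg, chr13:23571150-23571399, plus strand: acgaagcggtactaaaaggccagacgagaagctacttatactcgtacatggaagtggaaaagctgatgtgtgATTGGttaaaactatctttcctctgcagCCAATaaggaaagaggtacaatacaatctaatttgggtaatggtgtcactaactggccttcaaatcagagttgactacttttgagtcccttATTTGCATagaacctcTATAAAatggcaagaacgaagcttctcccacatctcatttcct
Hist1h2bk, chr13:22035571-22035820, plus strand: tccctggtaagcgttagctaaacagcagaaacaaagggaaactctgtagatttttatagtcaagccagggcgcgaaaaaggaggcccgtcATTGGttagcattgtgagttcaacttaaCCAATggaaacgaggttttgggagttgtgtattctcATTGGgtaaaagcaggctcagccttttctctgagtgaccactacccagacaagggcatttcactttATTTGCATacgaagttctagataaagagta
All 4 hold CCAAT or its reverse ATTGG. Hist1h1c also has AAACACA, a box known from H1 promoters, and Hist1h2bg has both TATAAA and ATTTGCAT, the octamer known from H2B promoters. Hist1h2bk has ATTTGCAT too, so these letters do not separate the member that was highest in sgZrsr2 3 from the one that was lowest. Such matches describe the letters in these windows and are not binding sites shown by data.

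The same motifs separate the types. CCAAT was present in 53 of 62 members (85.5%, against 37.4% of 32851 RefSeq promoters), in every H1, H2A, H2B and H3 promoter matched and in 3 of 12 H4 promoters. ATTTGCAT was present in 13 members (20.97%, against 1.74%), of which 7 were H2A and 6 were H2B genes. Windows of neighbouring H2A and H2B genes can overlap, so the same match may count for both genes. An example is Hist1h2ae (chr13:23571171-23571470) with Hist1h2bg (chr13:23571150-23571449), both counted with ATTTGCAT. TATAAA on the transcript strand was present in 30 members (48.4%, against 8.32%), and AAACACA in 9 (14.5%, against 7.18%), 5 of them among the 6 H1 genes. None of these motifs contains another.

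Of the 15 tested genes that process histone mRNA, none had an unadjusted p under 0.05 in edgeR's test, and their median log2 fold change was −0.10 (12 below 0 and 3 above). Slbp, which binds the stem-loop, was at 147, 151, 163, 157 and 151 CPM in EV and 150, 145, 109 and 127 CPM in sgZrsr2. The low values were those of sgZrsr2 3 and 5, and the groups overlapped (log2 fold change −0.21, SE 0.11; p = 0.0317 in the two-sided exact permutation test, not adjusted). Srrt, which codes for ARS2 of the cap-binding complex, was at 308 to 341 CPM in EV and 274 to 307.5 CPM in sgZrsr2 (log2 fold change −0.11, SE 0.09). It was the 1 gene of the list whose groups did not overlap. Of all genes, 1.32% were without overlap and lower and 1.75% without overlap and higher. Such groups always give the smallest p of the exact permutation test (0.0159, not adjusted), so that p adds nothing to the lack of overlap. Srrt is named after its values were seen. Npat, the coactivator of histone transcription, was at 0.30 (SE 0.20) and Casp8ap2, another protein of the histone locus body, at 0.20 (SE 0.16). The U7 subunits Lsm10 and Lsm11 stood at −0.02 and 0.02 and Zfp473, a U7-associated zinc finger protein, at −0.12. No value is given for the U7 RNA gene Rnu7.

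Among 8 genes for the decay of histone mRNA, which include Upf1 and Zcchc11 (log2 fold changes 0.07 and 0.31), 3 were below 0 and 5 above, with a median of 0.08. The 14 histone chaperones tested, among them Ssrp1 of the FACT complex, had a median of −0.09, and no gene of either list had an unadjusted p under 0.05 in edgeR's test. In the exact permutation test, the chaperone Ubn1 had an unadjusted p of 0.0476 (log2 fold change 0.16, SE 0.10), and it is named for that after its values were seen. The variant histones, whose mRNAs are polyadenylated as a rule, had a median of −0.14 over 11 genes, with 8 below 0. H2afz, coding for H2A.Z, was at −0.30 (SE 0.19), H2afx at −0.22 (SE 0.11), and H3f3a and H3f3b, which both code for H3.3, at −0.09 and −0.14. The linker variant H1f0 was at −0.10. Of the 22 replication genes, 20 were below 0, with a median of −0.20, and 1, Cdc45, had an unadjusted p under 0.05 in edgeR's test (log2 fold change −0.30, SE 0.13). Of the 13 mitotic genes the median was −0.04, and Birc5 was the 1 with such a p (log2 fold change −0.24, SE 0.10). Among all genes tested, 6.85% had such a p, 2.98% lower, so these 2 counts are not read as results about the lists. Neither Cdc45 nor Birc5 passed adjustment in edgeR's test, and both are named after their values were seen.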

How the data were processed

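The values are expected counts per gene as the authors deposited them, made with RSEM 1.2.30 after cutadapt 1.11 on GRCm38, per the submitters' processing notes; aligner, annotation and strandedness are not given in the sources used here. RSEM divides reads that match several genes. Counts were rounded, filtered with filterByExpr (minimum count 10, minimum total 15), which kept 14944 genes and 99.93% of counts, and scaled with TMM factors of 0.894 to 1.07. Groups were compared over all genes tested with edgeR 4.0.16 (quasi-likelihood test, R 4.3.3) and Benjamini-Hochberg adjustment. The procedure was tested on simulated data. Levels are TMM-scaled CPM; single members were also put to a two-sided exact permutation test, whose smallest p is 0.0159.

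Sequences come from GENCODE M21 transcripts (61 members matched by identifier, 9 by symbol and place) and RefSeq. Members, lists and tests were chosen with earlier results of these data known. Named members were the 2 highest of each type, the 5 smallest p in each direction and the 5 largest ratios between libraries; genes of the other lists were set by name or were the 2 with the highest mean. The numbers m1 to m5 in the titles are read as mice; nothing else says that samples come from separate animals, so p-values measure the spread between these samples. Deviations of samples with the same number correlated at −0.23, −0.09 and −0.40 for numbers 1, 2 and 3 and at 0.37 for number 5. The correlation was positive for number 5 only, so numbers were not used as pairs. Depth limits members of few counts, and PCR reads without molecular identifiers are not independent molecules. Alternatives were other scalings, filters and tests, DESeq2 1.42.0 and limma-voom (limma 3.58.1), and libraries left out.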

Additional observations from a re-analysis of the deposited data

Results flagged for a closer look

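In 27 measures (the named members and sums), each group was examined for a library far from the others. Of the 54 sets of values 7 stood apart, where 1 in 20 would be about 2.7. Some members were named for a small p or a large ratio in these same values, so 2.7 is not the number expected by chance. In the 4 sgZrsr2 libraries, mouse 3 stood apart for Hist1h1c, high at 59.1 CPM against 26.5 to 29.4 CPM in the others, and for Hist1h2ap, low at 526 CPM against 761 to 801 CPM. Mouse 1 stood apart for Hist1h3c at 7.05 CPM, with the others at 3.04 to 3.30 CPM. Mouse 5 was low for the summed level of all members without Hist1h2ap, at 204 CPM against 268 to 279 CPM.

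In the 5 EV libraries, mouse 3 was the library apart each time. It was high for the summed level of H1 genes (63.4 CPM, the others 37.9 to 41.7 CPM), for Hist1h4m (5.98 CPM, the others 1.55 to 2.58 CPM) and for Hist1h2bp (0.711 CPM, the others 0.346 to 0.430 CPM). The measures share libraries and reads, so they are not independent.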

How the results depend on the processing

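The number of members past the adjusted threshold was 0 under every alternative run. The number at an unadjusted p under 0.05, 2 in edgeR, was 1 with limma-voom, 0 with the mouse number as a replicate block, 1 with sgZrsr2 1 and 2 averaged, and 0 to 7 when each library was left out in turn; the 7, all lower, came without EV 5, and 0 came without EV 4 or sgZrsr2 5. The share of all genes at an unadjusted p under 0.05 in each of these fits is not given here. The median of the members stayed below 0 in all settings. Single genes changed sign: Hist1h2ao was 0.037 with limma-voom and 0.067 without EV 5, sgZrsr2 3 and sgZrsr2 5, Hist1h2bq was −0.10 with limma-voom, Hist1h2bg was −0.090 without those 3 libraries, and Hist1h4i was −0.022 with sgZrsr2 1 and 2 averaged. Over the libraries left out in turn, Hist1h4i ranged from −0.048 to 0.11 and Hist1h2bc from −0.11 to 0.022. Type medians turned positive for H1 and H4 without EV 3 (0.01 and 0.14) and with limma-voom (0.07 and 0.10), and for H4 without sgZrsr2 5 (0.032) and without the 3 libraries (0.17). The cause was not tested. Members under 1 CPM rest on few counts, and depth limits them.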
